A study of Monodelphis domestica and Mus musculus with 26 samples.

Results

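Gene expression in adult testis of the gray short-tailed opossum, Monodelphis domestica, a marsupial, was compared with that at an age of 1 month (1M). The comparison takes 8 of the 26 samples of a study of spermatogenesis in mouse and opossum: the polyA-selected bulk RNA-seq libraries of opossum testis, 2 at 1M (replicates 1 and 2) and 6 from adults (replicates 1 and 3 to 7). A further 8 polyA libraries, 1 of 2 months (2M), 4 of 3 months (3M) and 3 of 4 months (4M), are given as description beside the results. The animals carried no stated treatment or genetic change, and the adult age in weeks or months is not given in the sources used here. Testes of both ages were opened, dissociated with collagenase and trypsin and filtered before RNA was isolated. The labels name no batch, and they do not say that the libraries of a group came from separate animals. The p-values therefore measure only the spread between these libraries, which may be technical.

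A testis consists of seminiferous tubules, in which Sertoli cells nurse the germ cells, and of an interstitium with steroid-making Leydig cells, vessels, macrophages and connective tissue, the tubules being wrapped by contractile peritubular myoid cells. Before puberty the tubules hold Sertoli cells and early germ cells, and growth factors, matrix and adhesion molecules of the somatic cells shape the organ. With spermatogenesis, spermatocytes and spermatids fill the tubules and come to supply much of the RNA. In bulk RNA a lower value can mean fewer cells of a type or less RNA of the gene per cell, and these cannot be told apart.

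Values are TPM, a transcript abundance scaled for gene length and library total, after mitochondrial genes were removed and each library was rescaled so that the rest summed to the usual TPM total. Differences are adult minus 1M on the log2(TPM + 1) scale, ± SE. They understate the change of genes with low values. A call needed an adjusted p (Benjamini-Hochberg) under 0.05 (limma, over all genes tested) with a log2 difference of at least 1 either way. Of 34948 genes, 18152 reached 1 TPM in at least 2 of the 8 libraries and were tested. A gene can pass that filter through 1 age alone, and is then bound to differ. That holds for rises given below with both 1M values under 1 TPM, and their p-values are no separate support.

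Aligned sequence amounted to 4.30 to 6.95 gigabases per library. The 1M libraries were alike (Pearson r of log2(TPM + 1) across genes 0.993), as were adult replicates 4 to 7 (0.959 to 0.979). Adult replicates 1 and 3 stood apart from these 4, with r of 0.820 to 0.880, against 0.911 with each other. Mitochondrial genes took 39.9% of the deposited TPM in adult replicate 1 and 11.8% in adult replicate 3, against 7.36% to 8.66% in the other adults and 4.74% and 5.03% at 1M. Levels also followed the GC content and length of the mouse transcript of the same symbol, and did so to a different degree in different libraries. The median TPM of the highest of 5 equal groups of genes by GC content was 0.1003 and 0.0941 of that of the lowest group in the 1M libraries. The ratio was 0.197 and 0.203 in adult replicates 1 and 3 and 0.395 to 0.485 in adult replicates 4 to 7. For length, adult replicates 1 and 3 were again near the 1M libraries and the other adults were not. The part of GC content and length in the differences between ages was not tested. Results were therefore also computed with adult replicates 1 and 3 left out and with these alone, settings that were chosen after the data were seen and that share the 1M libraries. They are given with many of the groups of genes and where they change the call of a gene described.

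**Figure D1:**
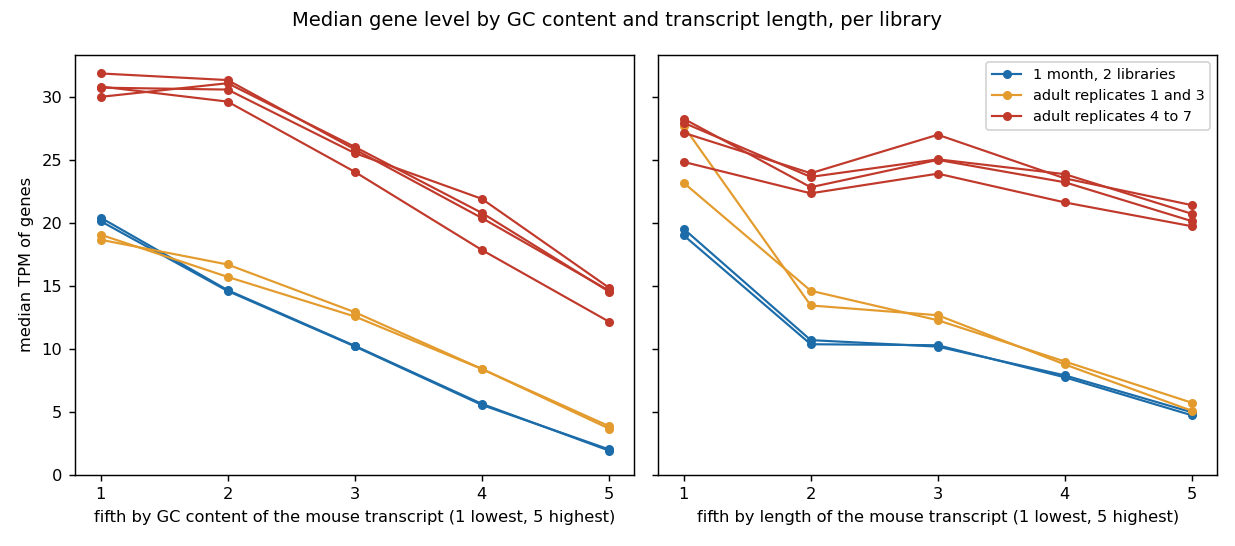
Median TPM of tested genes (vertical axis) in 5 equal groups of genes ordered by GC content (left) or length (right) of the mouse transcript with the same symbol, 1 line per library. The 2 libraries of 1M (blue) and adult replicates 1 and 3 (orange) fall off more steeply with length than adult replicates 4 to 7 (red), and have lower medians in the GC-richest group.

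From 1M to adult, 5954 genes (32.8% of those tested) were called higher and 2523 (13.9%) lower, and 10661 had an unadjusted limma p under 0.05. These 2 percentages are over all genes tested, with or without a symbol, and stand beside the counts of list members that follow. List members all carry a symbol, so this background is not matched to them. Among the 9123 tested genes with a symbol and a mouse transcript, 27.5% to 30.8% were called higher across 5 equal groups by length, below 32.8%. In those groups 8.16% to 25.5% were called lower, on either side of 13.9%. The median difference over all genes tested was 0.81. With libraries scaled to a common median ratio it was 0.02, and 3677 genes were called higher and 4539 lower, so the share of called genes that were higher moved from 70.2% to 44.8%. With quantile normalization the median was -0.13, and the counts were 3128 and 4705. Without 1M replicate 1 the counts were 2936 higher and 922 lower, and without 1M replicate 2 they were 2871 and 885, with the lone 1M library assumed to vary as the adults do. Adult replicates 1 and 3 alone gave 3997 and 2128, and leaving them out gave 8892 and 2909. Of the 213 genes named by rule, 103 fell and 90 rose. Apart from the anchors and the most abundant genes, they were picked as the largest called differences overall or in a list. In the 193 that fell or rose the 1M and adult libraries did not overlap, which was a condition for picking the largest rises and falls. The share without overlap over all genes is not given here. With median-ratio scaling 103 of the 103 and 70 of the 90 were called in the same direction. With adult replicates 1 and 3 alone the numbers were 85 and 65. Both with these alone and without them, 84 named falls and 64 named rises were called. Over all genes this held for 1452 of the 2523 falls and 3562 of the 5954 rises, so the named genes do not stand for all calls. Of the 103, 14 were not tested once either 1M library was left out, because they had passed the filter through 1M, and 68 were called in each leave-one-out fit that tested them. Of the 90 that rose, 56 were called in each such fit. Among named genes that were not called, DDX4, FN1, GATA4, KIT, KITLG, NOTCH2, PTPRC and WT1 were called higher and CYP11A1 lower without adult replicates 1 and 3, whereas COL4A1, FN1, LAMA1 and PTCH1 were called lower with these alone. With values centred within bins of GC content and length, 98 of the 99 falls and 70 of the 89 rises that had a mouse transcript were called in the same direction. Of the genes described singly, ADAMTS15, ADRB1, EMILIN1, FGFR4, PPARD, RFNG, RHAG and WNT5A were among those that lost their calls there, and COL4A1, INHA, LAMA1, MYH11 and PTCH1 were called.

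The counts of single lists moved with the libraries used. Of the 54 lists of genes, the number of rises grew by more than 1.5 times in 35 without adult replicates 1 and 3, and the number of falls did in 19 with these alone. With median-ratio scaling rises shrank by more than 1.5 times in 25 lists and falls grew by as much in 25. Without 1M replicate 1 falls shrank by as much in 33 lists, and without 1M replicate 2 in 33. The cause was not tested, and many of these counts are given with the lists.

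The tissue label was first checked against germ-cell genes. Of 168 germ-line genes tested, 130 were called higher and 2 lower, with a median difference of 3.27. Of those tested, 73 reached 1 TPM in adult libraries alone. PRM1, a protamine that packs sperm DNA, was among the 5 most abundant genes of the adult testis at 0.349 and 0.428 TPM in the 1M libraries and 10517 to 19214 TPM (median 13103) in the adult libraries, a log2 difference of 13.25 ± 0.28 (limma adjusted p = 5.1e-08). The 10 largest rises of symbol-bearing genes also included the transition protein gene TNP1, the spermatid chromatin gene HMGB4, the sperm fibrous sheath gene AKAP4 and the antizyme gene OAZ3. HMGB4 stood at 0.470 and 0.577 TPM in the 1M libraries and 2242 to 4432 TPM (median 2735) in the adult libraries. The sperm tail list summed to 125 and 133 TPM in the 1M libraries and 3448 to 12235 TPM (median 10526) in the adult libraries, and 54 of its 54 tested members were called higher (46 and 47 without 1M replicate 1 and 2 in turn). Adult replicate 1 held the lowest sperm tail sum, and the next adult library was at 9067 TPM. The acrosome list had 15 of 16 members higher, the chromatin condensation list 16 of 19 and the meiotic prophase list 20 of 31 (12 with median-ratio scaling, 13 and 14 without each 1M library). The meiotic sum was 398 and 444 TPM in the 1M libraries and 2207 to 5832 TPM (median 4088) in the adult libraries.

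Genes of earlier germ cells were examined next. DDX4, an RNA helicase of germ cells at most stages, was already at 101 and 147 TPM at 1M and at 152 to 517 TPM (median 256) in adults, a log2 difference of 1.13 ± 0.48 (limma adjusted p = 0.0735) that missed the threshold. Of 18 spermatogonial genes tested, 4 were called higher and 1 lower, and 2 and 2 with median-ratio scaling. Rises numbered 1 without either 1M library, 7 without adult replicate 1, 10 without adult replicate 3 and 11 without both. STRA8, which retinoic acid induces before meiosis, stood at 2.77 and 2.57 TPM in the 1M libraries and 4.75 to 9.94 TPM (median 6.91) in the adult libraries, and its log2 difference of 1.09 ± 0.39 (limma adjusted p = 0.0426) lost its call in 6 of the 8 fits that left out 1 library and with median-ratio scaling. KIT, the receptor of differentiating spermatogonia, had 4.03 and 5.96 TPM at 1M and 4.30 to 19.1 TPM (median 14.5) in adults (log2 difference 1.15 ± 0.52, limma adjusted p = 0.0884). LIN28B, an RNA-binding protein of immature cells, fell from 7.65 and 7.88 TPM to 2.13 to 4.66 TPM (median 2.54) (log2 difference -1.21 ± 0.35, limma adjusted p = 0.0195), but its adjusted p was 0.124 and 0.135 without 1M replicate 1 and 2 in turn, and it was not called with adult replicates 1 and 3 alone. The 1M libraries held germ-cell RNA but little RNA of spermatid genes.

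**Figure D2:**
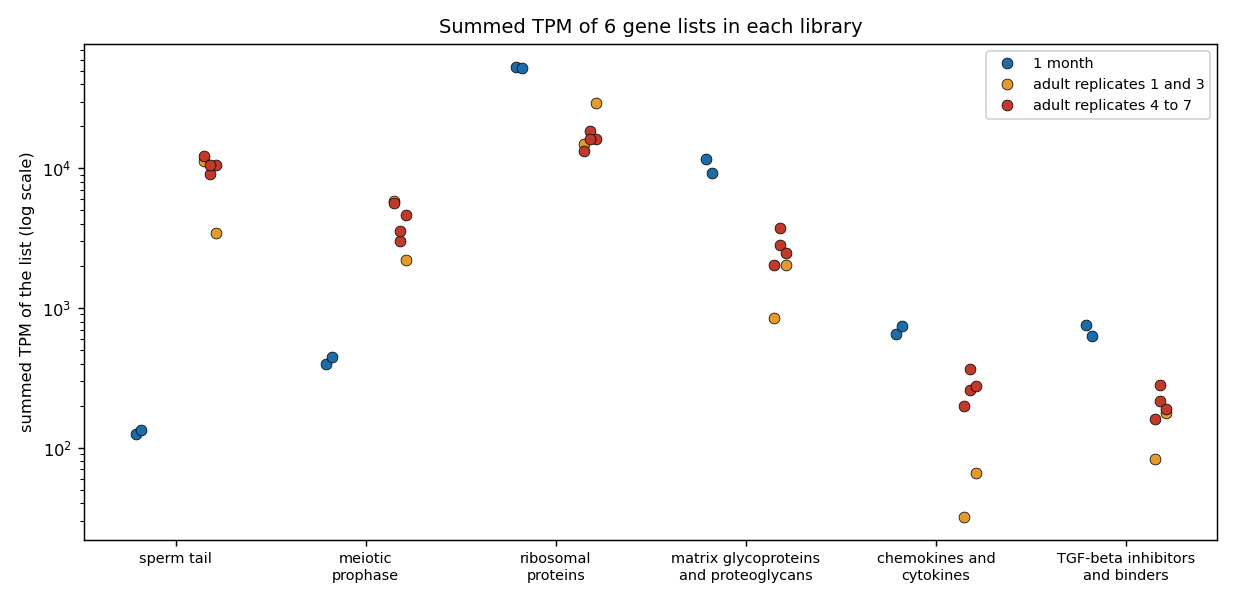
Summed TPM of 6 gene lists (log axis) in each of the 2 libraries of 1M (blue), adult replicates 1 and 3 (orange) and adult replicates 4 to 7 (red). Sperm tail and meiotic sums were higher in the 6 adult libraries, and the other 4 sums were higher in both 1M libraries.

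Genes of extracellular matrix, the fibres and glycoproteins that stromal and tubular cells lay down, fell in a larger share than the 13.9% over all genes. Of 106 matrix and integrin genes tested (121 found), 32 (30.2%) were called lower and 12 (11.3%) higher, with a median of -0.64. Median-ratio scaling gave 5 higher and 51 lower. Rises numbered 31 without adult replicates 1 and 3, and 4 without either 1M library. Lower calls numbered 57 with adult replicates 1 and 3 alone and 34 without them, and 19 and 22 without each 1M library. Of those tested, 3 reached 1 TPM at 1M alone and 18 in adults alone.

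Glycoproteins and proteoglycans held 15 of the 32 falls: 15 of 29 were called lower and 1 higher (11 and 13 lower without 1M replicate 1 and 2 in turn). Without adult replicates 1 and 3, 15 were lower and 7 higher, and with these alone, 23 were lower and none higher. Together they summed to 11706 and 9235 TPM in the 1M libraries and 846 to 3743 TPM (median 2261) in the adult libraries. Lumican (LUM), a small leucine-rich proteoglycan that spaces collagen fibrils, stood at 1049 and 665 TPM in the 1M libraries and 2.77 to 19.7 TPM (median 12.5) in the adult libraries, a log2 difference of -6.12 ± 0.60 (limma adjusted p = 6.3e-05). Periostin (POSTN), which anchors fibroblasts to matrix, stood at 936 and 836 TPM in the 1M libraries and 3.41 to 30.7 TPM (median 17.8) in the adult libraries, with a log2 difference of -5.96 ± 0.69 (limma adjusted p = 0.00017). Thrombospondin 2 (THBS2), an inhibitor of vessel growth, had 54.1 and 28.9 TPM in the 1M libraries and 0.421 to 1.26 TPM (median 0.674) in the adult libraries (log2 difference -4.55 ± 0.36, limma adjusted p = 1.7e-05). In these 3 genes each 1M library lay far above the highest adult. SPARC, a collagen-binding matricellular protein, was among the most abundant of the list at 6744 and 5479 TPM at 1M and 715 to 2651 TPM (median 1553) in adults. It fell (log2 difference -1.96 ± 0.46, limma adjusted p = 0.0070), and its adjusted p was 0.0761 without 1M replicate 1. Decorin (DCN), another leucine-rich proteoglycan, went from 1824 and 1304 TPM to 24.2 to 216 TPM (median 99.4). The other 10 that fell were the fibulins FBLN1 and FBLN5, EFEMP1, the microfibril proteins MFAP4 and MFAP5, MATN2, THBS4, HAPLN3 and the SPARC-related SMOC1 and SMOC2, with differences of -3.99 to -2.08. Fibronectin (FN1) had 8.58 and 11.1 TPM at 1M and 0.609 to 101 TPM (median 21.2) in adults, overlapping, with a log2 difference of 0.32 ± 1.39 (limma adjusted p = 0.851). Its values changed sign between settings, at -2.37 with adult replicates 1 and 3 alone and 1.67 without them. EMILIN1, an elastic fibre protein and the 1 that rose, had 1.46 and 1.23 TPM at 1M, and its lowest adult value was 2.86 TPM against a median of 72.2 (log2 difference 3.75 ± 1.37, limma adjusted p = 0.0465). It was not called with median-ratio scaling, with adult replicates 1 and 3 alone, or in 6 of the 8 fits that left out 1 library, those without a 1M library or without adult replicate 4, 5, 6 or 7.

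Of the enzymes that mature and cut matrix, and their inhibitors, 10 of 35 were called lower and 3 higher (6 and 7 lower without each 1M library). Median-ratio scaling gave 18 lower and 1 higher, adult replicates 1 and 3 alone gave 17 and 2, and the adults without them gave 11 and 6. None was higher with quantile normalization (19 lower) or within bins of GC content and length (17 lower). HTRA3, a secreted serine protease, had 881 and 669 TPM in the 1M libraries and 2.83 to 72.5 TPM (median 38.0) in the adult libraries, a log2 difference of -4.73 ± 0.93 (limma adjusted p = 0.0031). PLOD2, which hydroxylates collagen lysines for cross-linking, fell from 132 and 116 TPM to 1.03 to 11.7 TPM (median 4.74), a log2 difference of -4.53 ± 0.60 (limma adjusted p = 0.00036). PLAU, the urokinase plasminogen activator, fell from 58.1 and 40.7 TPM to 0.229 to 6.39 TPM (median 2.60), a log2 difference of -3.96 ± 0.69 (limma adjusted p = 0.0017). The others that fell were the membrane protease MMP16, the collagen hydroxylase subunit P4HA2, PLOD3, the procollagen enhancer PCOLCE2, lysyl oxidase (LOX), ADAMTS3, which trims procollagen, and SERPINF1, with differences of -3.75 to -1.40. ADAMTS15, a proteoglycan-cutting enzyme, had the largest of the 3 rises at 2.09 ± 0.32, but was not called with values centred within bins of GC content and length.

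Collagens and basement membrane were mixed. Of 9 interstitial collagens tested, 2 fell and 2 rose, and with median-ratio scaling 5 were lower and 1 higher. With adult replicates 1 and 3 alone, 6 were lower and 1 higher, and without either 1M library none was lower and 1 higher. COL1A1, the main fibrillar collagen chain, stood at 32.0 and 24.5 TPM in the 1M libraries and 0.465 to 9.18 TPM (median 5.79) in the adult libraries, and fell (log2 difference -2.58 ± 0.73, limma adjusted p = 0.0175). COL12A1, a fibril-associated collagen, fell (log2 difference -1.46 ± 0.49, limma adjusted p = 0.0334). COL26A1 rose from 0.179 and 0.465 TPM to 15.1 to 56.9 TPM (median 43.4), a log2 difference of 4.88 ± 0.49 (limma adjusted p = 7.1e-05). Of 17 basement membrane genes 1 fell and 3 rose (1 higher and 4 lower with median-ratio scaling, 1 and none without either 1M library). Without adult replicates 1 and 3, 10 rose and 1 fell, and with these alone, 2 rose and 7 fell. Laminin chains differed: LAMA4, found in vessel and muscle basement membrane, fell from 115 and 133 TPM to 1.06 to 26.9 TPM (median 12.7), a log2 difference of -3.56 ± 0.86 (limma adjusted p = 0.0086), whereas LAMC3 rose from 0.629 and 0.482 TPM to 13.5 to 63.3 TPM (median 50.6), a log2 difference of 4.74 ± 0.55 (limma adjusted p = 0.00017). LAMA1, another laminin chain, had 42.6 and 42.4 TPM at 1M and 8.28 to 43.9 TPM (median 42.0) in adults, with overlap (log2 difference -0.68 ± 0.69, limma adjusted p = 0.413), and COL4A1 also overlapped (log2 difference -2.11 ± 1.32, limma adjusted p = 0.195). Among 16 integrins, the matrix receptors, 4 fell and 3 rose (2 and 1 without either 1M library, 5 and 6 rises without adult replicate 1 and 3, 6 without both and 1 with these alone). ITGA4, which binds fibronectin and VCAM1, fell (log2 difference -2.89 ± 0.45, limma adjusted p = 0.00087), as did ITGB1, the common beta chain (log2 difference -2.85 ± 0.53, limma adjusted p = 0.0022), and ITGA2, a collagen receptor chain (log2 difference -2.79 ± 0.26, limma adjusted p = 4.4e-05). ITGA2 had passed the filter through 1M and was not tested without either 1M library. The platelet chain ITGA2B rose (log2 difference 4.85 ± 0.52, limma adjusted p = 0.00011). Without 1M replicate 1 and 2 in turn, adjusted p was 0.125 and 0.0884 for COL1A1, 0.192 and 0.126 for COL12A1 and 0.0615 and 0.0753 for LAMA4, and COL12A1 also lost its call without adult replicate 6 (0.0520) or 7 (0.0510).

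**Figure D3:**
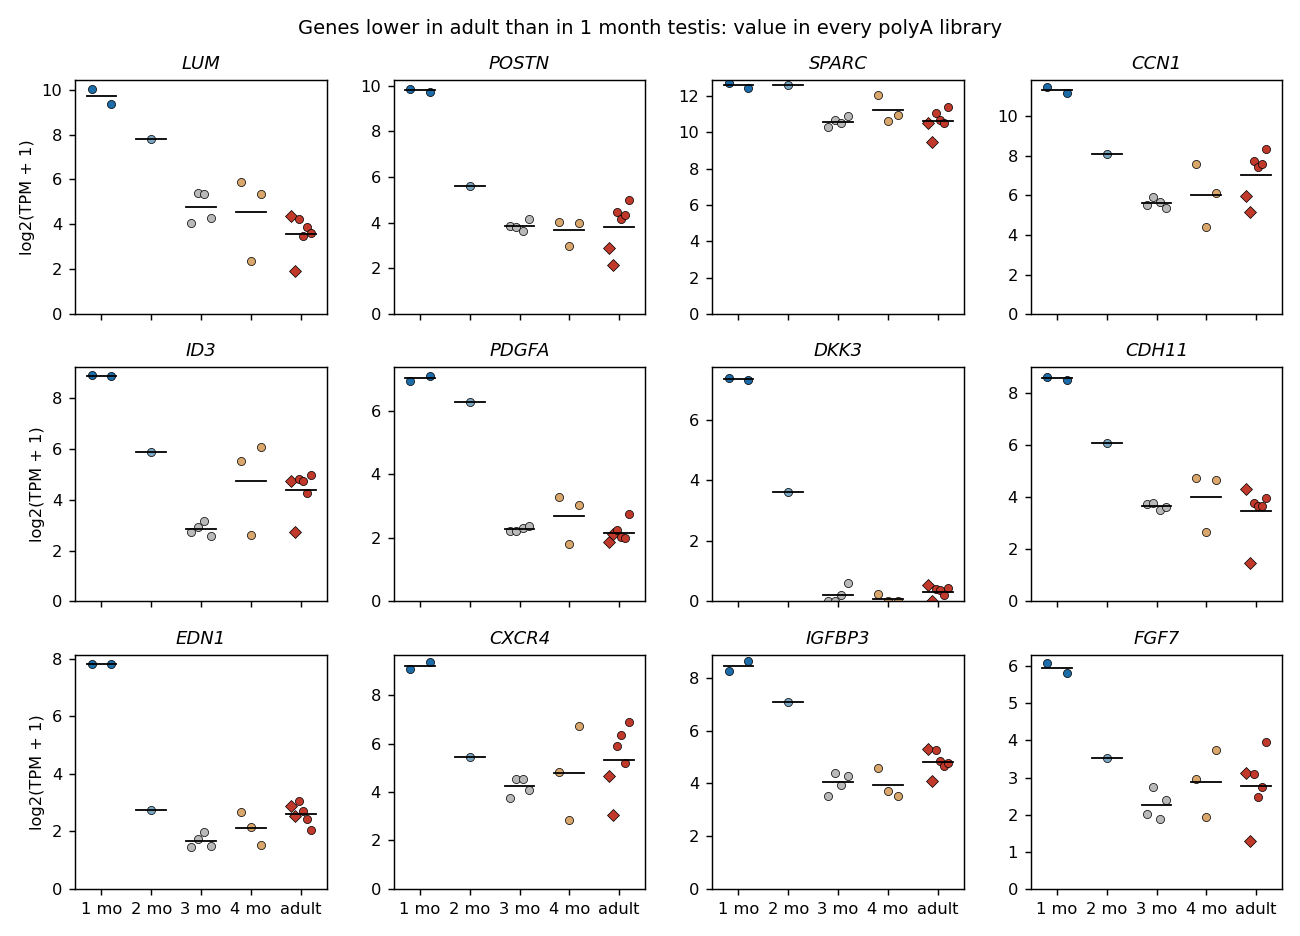
Value of 12 genes that fell, on the log2(TPM + 1) scale, in each polyA library by age in months (mo). Points are libraries, diamonds are adult replicates 1 and 3, and bars are group means. Both 1M libraries lay above each adult library in the 12 panels, and the 3M libraries lay below both 1M libraries.

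Signalling genes gave falls and rises in near equal number on the TPM scale, a balance that moved with the scaling. Of 453 genes found, 361 were tested, 65 (18.01%) fell and 62 (17.2%) rose, beside 13.9% and 32.8% over all genes. The median difference was 0.48. Of those tested, 20 reached 1 TPM at 1M alone and 97 in adults alone. Median-ratio scaling gave 33 higher and 113 lower, and bins of GC content and length 39 higher and 116 lower. Falls numbered 101 with adult replicates 1 and 3 alone and 65 without them, and rises 28 and 172. Over all genes 11.7% and 16.5% fell in these 2 fits, and 22.0% and 50.4% rose. Leaving out 1M replicate 1 and 2 in turn, there were 29 and 25 falls and 22 and 22 rises. Without adult replicate 1 or 3 rises numbered 101 and 112.

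**Figure D4:**
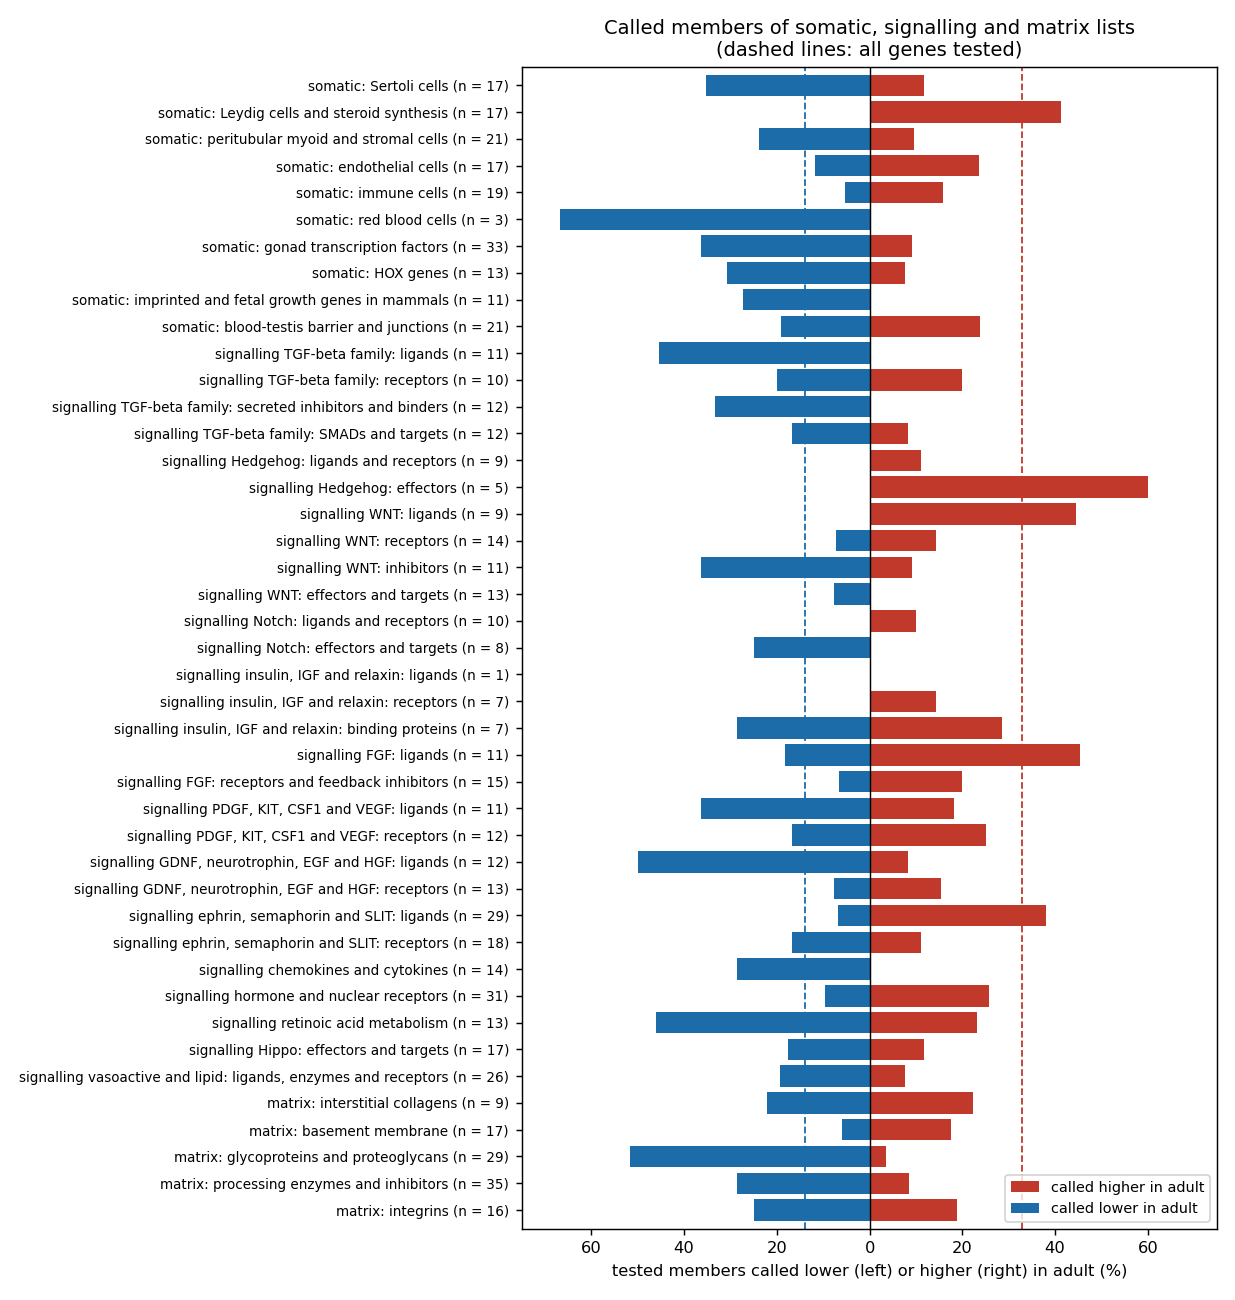
Percent of tested members of each somatic, signalling and matrix list called lower (blue, left) or higher (red, right) in adult than in 1M testis, with the number tested in brackets. Dashed lines mark the shares over all genes tested, 13.9% lower and 32.8% higher, and matrix glycoproteins and proteoglycans reach 15 of 29 lower.

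In the TGF-beta family, whose ligands, receptors and antagonists tune Sertoli, germ and stromal cell growth, 13 of 45 tested genes fell and 3 rose (8 and 8 falls and no rise without each 1M library, 7 and 9 rises without adult replicate 1 and 3 and 15 without both). There were 20 falls with adult replicates 1 and 3 alone and 22 with median-ratio scaling. Of 11 ligands 5 fell and none rose (2 and 2 falls without each 1M library). Myostatin (MSTN), known as a brake on muscle growth, had 85.6 and 44.8 TPM in the 1M libraries and 2.33 to 7.84 TPM (median 4.46) in the adult libraries, a log2 difference of -3.45 ± 0.47 (limma adjusted p = 0.00042). BMP2 fell from 16.7 and 18.998 TPM to 0.636 to 3.62 TPM (median 2.00), a log2 difference of -2.78 ± 0.45 (limma adjusted p = 0.0011) and BMP4, a ligand that acts on germ-cell and stromal precursors, from 26.2 and 26.8 TPM to 1.47 to 10.6 TPM (median 5.88), a log2 difference of -2.13 ± 0.55 (limma adjusted p = 0.0111). TGFB2 and the germ-cell ligand GDF9 made up the 5. The inhibin alpha chain INHA, a Sertoli product, stood at 14.6 and 16.0 TPM and 4.21 to 25.8 TPM (median 17.3) and was not called. Among 12 secreted binders 4 fell and none rose. TWSG1, which shapes BMP gradients, had 246 and 211 TPM in the 1M libraries and 11.8 to 65.5 TPM (median 20.7) in the adult libraries (log2 difference -3.27 ± 0.57, limma adjusted p = 0.0016), and adult replicate 1 was the highest adult. BAMBI, a decoy receptor, fell from 184 and 165 TPM to 15.9 to 31.3 TPM (median 23.1), a log2 difference of -2.95 ± 0.32 (limma adjusted p = 0.00012), and LTBP1, which stores latent TGF-beta in matrix (log2 difference -2.72 ± 0.52, limma adjusted p = 0.0026). Of the BMP-responsive inhibitors of differentiation, ID3 fell from 477 and 463 TPM to 5.64 to 30.8 TPM (median 25.7), a log2 difference of -4.49 ± 0.56 (limma adjusted p = 0.00026) and ID1 from 107 and 99.1 TPM to 12.7 to 28.2 TPM (median 18.7), a log2 difference of -2.37 ± 0.37 (limma adjusted p = 0.00094). ID4, in contrast a marker of spermatogonial stem cells, rose from 3.17 and 2.98 TPM to 7.45 to 62.3 TPM (median 48.2), a log2 difference of 2.90 ± 0.83 (limma adjusted p = 0.0178). The receptors were divided, with ACVR1 and TGFBR1 lower (log2 differences -1.91 ± 0.53 and -1.89 ± 0.28) and BMPR1B and ACVR1C higher, and with median-ratio scaling 2 were lower and none higher. There were 4 rises without adult replicate 1 or 3 and 1 without any other adult library. Without 1M replicate 1 and 2 in turn, adjusted p was 0.0837 and 0.0892 for BMP4, 0.0935 and 0.110 for ACVR1, 0.101 and 0.109 for ID4 and 0.201 and 0.122 for BMPR1B, and the last also lost its call without adult replicate 4, 5 or 7. ID4 and BMPR1B were not called with adult replicates 1 and 3 alone.

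Of 47 WNT genes tested 6 fell (12.8%, beside 13.9% over all genes). Antagonists held 4 of the 6, and 5 of 12 with median-ratio scaling. Of those tested, 4 reached 1 TPM at 1M alone, DKK3 and SOSTDC1 among them, and 16 in adults alone. Such genes were bound to differ. Without adult replicates 1 and 3, 20 of 47 WNT genes rose, against 7, and with these alone, 13 fell. Over all genes 50.4% rose in the first of these fits and 11.7% fell in the second. Of 11 secreted or membrane inhibitors 4 fell and 1 rose, and of 9 ligands 4 rose and none fell on the TPM scale (1 and 2 with median-ratio scaling, none and 2 with quantile normalization). Without either 1M library 1 ligand rose, and without adult replicate 7 4 rose and 2 fell. DKK3, a secreted glycoprotein of the Dickkopf family, was among the 15 largest falls, at 164 and 158 TPM in the 1M libraries and 0 to 0.443 TPM (median 0.316) in the adult libraries, a log2 difference of -7.01 ± 0.32 (limma adjusted p = 8.7e-07). SOSTDC1, which binds BMP and WNT receptors, stood at 14.4 and 19.1 TPM at 1M and was listed at 0 in 5 of the 6 adult libraries, with 0.0968 TPM in adult replicate 6 (log2 difference -4.12 ± 0.23, limma adjusted p = 2.5e-06). SHISA2, which retains Frizzled receptors inside the cell, fell (log2 difference -2.24 ± 0.35, limma adjusted p = 0.00087), and its relative SHISA3 was the other. Sclerostin (SOST) was the 1 inhibitor that rose, from 0.205 and 0 TPM to 2.95 to 20.8 TPM (median 6.47), with adult replicate 1 the highest. Its adjusted p was 0.0568 without 1M replicate 2. WNT5A, a ligand of non-canonical signalling, rose from 0.780 and 0.570 TPM to 3.90 to 8.40 TPM (median 6.57), a log2 difference of 2.1 ± 0.37 (limma adjusted p = 0.0017). LGR5, the R-spondin receptor of epithelial stem cells, fell from 5.94 and 5.26 TPM to 0 to 1.07 TPM (median 0.0846), a log2 difference of -2.46 ± 0.31 (limma adjusted p = 0.00030), with adult replicate 7 above the other adults. LEF1, a transcription factor of canonical signalling, fell (log2 difference -1.62 ± 0.48, limma adjusted p = 0.0214), and beta-catenin (CTNNB1) was not called at -0.63 ± 0.40. LEF1 had an adjusted p of 0.0825 and 0.166 without 1M replicate 1 and 2 in turn. DKK3 and SOSTDC1 had passed the filter through 1M and were not tested without either 1M library, and SHISA2 was then the 1 fall counted among the inhibitors. WNT5A was not called with values centred within bins of GC content and length, nor was SOST with adult replicates 1 and 3 alone.

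Without adult replicates 1 and 3, 11 of 18 Notch and 10 of 14 Hedgehog genes were called higher, against 1 and 4 with all 6 adults. Over all genes that fit called 50.4% higher, against 32.8% with all 6 adults. Of 18 Notch genes 2 fell (4 with median-ratio scaling or with adult replicates 1 and 3 alone), both targets: HES5 from 4.30 and 2.94 TPM to 0 to 0.202 TPM (median 0), a log2 difference of -2.11 ± 0.21 (limma adjusted p = 7.0e-05) and HEY1 from 4.71 and 5.84 TPM to 0.315 to 2.23 TPM (median 1.44), (log2 difference -1.5 ± 0.38, limma adjusted p = 0.0108, and adjusted p 0.0663 and 0.108 without 1M replicate 1 and 2 in turn). HES5 had passed the filter through 1M and was not tested without either 1M library. The glycosyltransferase RFNG, which modifies Notch receptors, was the 1 that rose, and it was not called with median-ratio scaling, with adult replicates 1 and 3 alone, or in 6 of the 8 fits that left out 1 library. NOTCH2 overlapped between ages (log2 difference 1.55 ± 0.94, limma adjusted p = 0.184). Of 14 Hedgehog genes 4 rose (28.6%, beside 32.8% over all genes) and none fell, whereas with median-ratio scaling 2 of the ligands and receptors were called lower and 1 higher. PTCH1, the receptor and a target of the pathway, had 7.06 and 6.38 TPM at 1M and 1.40 to 8.13 TPM (median 6.83) in adults (log2 difference -0.49 ± 0.63, limma adjusted p = 0.519). The risers (2 and 3 ligands or receptors without adult replicate 1 and 3, against 1) were SCUBE2, which helps release ligand (log2 difference 4.61 ± 0.58), SUFU, which holds back GLI factors (log2 difference 4.95 ± 1.10), the ciliary receptor GPR161 (log2 difference 3.72 ± 0.27) and the kinase STK36 (log2 difference 4.14 ± 0.77), which the sperm tail list also holds. SUFU had an adjusted p of 0.0511 without 1M replicate 1 and was not called with adult replicates 1 and 3 alone. PTCH1 was lower with adult replicates 1 and 3 alone (-1.65, adjusted p = 0.0267, limma).

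Of 7 insulin-like growth factor (IGF) binding proteins and their proteases, IGFBP3 and IGFBP7 supplied most of the TPM at 1M and fell, while the other 5 had differences above 0 and the median was 0.82. IGFBP3, the main carrier of IGF in plasma, had 308 and 393 TPM in the 1M libraries and 16.1 to 38.1 TPM (median 26.8) in the adult libraries, a log2 difference of -3.63 ± 0.36 (limma adjusted p = 6.6e-05). IGFBP7, a matrix-bound relative, fell from 567 and 692 TPM to 34.1 to 253 TPM (median 89.7), (log2 difference -2.80 ± 0.64, limma adjusted p = 0.0067, 0.0695 without 1M replicate 2). IGFBP2 and the IGFBP-cutting protease PAPPA rose, PAPPA from 0.564 and 0.275 TPM to 1.94 to 32.0 TPM (median 27.6), a log2 difference of 3.37 ± 1.05 (limma adjusted p = 0.0252), so 2 of 7 fell and 2 rose (2 and 1 with median-ratio scaling, and no rise without either 1M library). PAPPA lost its call without 1M replicate 1 and 2 in turn (0.113 and 0.141). The ligand IGF1 had 51.2 and 47.3 TPM in the 1M libraries and 9.97 to 90.3 TPM (median 44.2) in the adult libraries, with overlap (log2 difference -0.43 ± 0.69, limma adjusted p = 0.608). RXFP2, the receptor for the Leydig hormone INSL3, rose from 0.0588 and 0 TPM to 3.13 to 38.3 TPM (median 14.2), a log2 difference of 3.81 ± 0.70 (limma adjusted p = 0.0022). It had passed the filter through the adult libraries alone and was bound to differ.

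Among fibroblast growth factors, FGF7, a stromal ligand that acts on epithelium, fell from 66.3 and 55.5 TPM to 1.44 to 14.5 TPM (median 6.61), a log2 difference of -3.17 ± 0.61 (limma adjusted p = 0.0028), and FGF9, which drives testis differentiation in the mouse embryo, from 9.32 and 9.99 TPM to 0.836 to 2.57 TPM (median 1.72), a log2 difference of -2.05 ± 0.37 (limma adjusted p = 0.0019). DUSP6, a feedback phosphatase that FGF signalling induces, fell (log2 difference -2.01 ± 0.61, limma adjusted p = 0.0223), with adjusted p 0.131 and 0.124 without 1M replicate 1 and 2 in turn. Other ligands rose: 5 of 11 against these 2. FGF8 went from 0.443 and 0.139 TPM to 19.04 to 48.6 TPM (median 40.3), a log2 difference of 4.88 ± 0.40 (limma adjusted p = 2.1e-05), FGF14 (log2 difference 3.53 ± 0.39) and FGF12 (log2 difference 3.08 ± 0.52), and FGF10 and FGF11 made up the 5. The klotho co-receptors KL and KLB also rose (log2 differences 3.22 ± 0.65 and 2.30 ± 0.40). Without either 1M library 2 of the ligands fell and 4 rose. FGFR4 was the third receptor that rose. It was not called with median-ratio scaling, with adult replicates 1 and 3 alone, within bins of GC content and length, or in 5 of the 8 fits that left out 1 library. Rises in its list numbered 6 and 7 without adult replicate 1 and 3 and 10 without both, and the list of receptors and feedback inhibitors turned from 3 higher and 1 lower to 2 and 2 with median-ratio scaling.

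Of 11 growth factors for mesenchyme, germ cells and vessels 4 fell and 2 rose (3 and 5 without adult replicates 1 and 3). PDGFA, which recruits Leydig precursors in the mouse, had 121 and 137 TPM in the 1M libraries and 2.62 to 5.81 TPM (median 3.23) in the adult libraries, a log2 difference of -4.85 ± 0.36 (limma adjusted p = 1.2e-05). PDGFD fell from 61.1 and 61.2 TPM to 2.40 to 19.8 TPM (median 8.19), a log2 difference of -2.76 ± 0.61 (limma adjusted p = 0.0057), and the angiopoietin ANGPT2, which loosens vessels, from 36.3 and 37.8 TPM to 3.72 to 16.4 TPM (median 9.65), a log2 difference of -1.98 ± 0.51 (limma adjusted p = 0.0117). PDGFC was the other that fell. With each 1M library left out, the adjusted p was 0.0555 and 0.0570 for PDGFD and 0.0881 and 0.0976 for ANGPT2, and the list had 1 fall each time. VEGFA, the main vessel growth factor, rose from 13.1 and 8.21 TPM to 35.8 to 182 TPM (median 137), (log2 difference 3.09 ± 0.65, limma adjusted p = 0.0043, 0.0590 without 1M replicate 2). KITLG, the Sertoli ligand of KIT, overlapped (log2 difference 0.54 ± 0.57, limma adjusted p = 0.431). Of the receptors, PDGFRL fell (log2 difference -3.69 ± 0.36, limma adjusted p = 5.7e-05) and FLT3 from 14.96 and 18.7 TPM to 1.05 to 3.32 TPM (median 2.15). CSF1R, the macrophage receptor, had 1M values of 2.03 and 1.73 TPM and adult values of 3.90 to 120.5 TPM (median 44.9), a log2 difference of 3.29 ± 1.22 (limma adjusted p = 0.0483), and was not called with adult replicates 1 and 3 alone, with median-ratio scaling, or in 6 of the 8 fits that left out 1 library. The receptor list as a whole turned from 3 higher and 2 lower to 1 and 4 with median-ratio scaling, and had no rise without either 1M library, 5 without adult replicate 3 and 7 without adult replicates 1 and 3, and with these alone, 5 fell and 1 rose.

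GDNF, by which Sertoli cells maintain spermatogonial stem cells, fell from 4.83 and 3.74 TPM to 0 to 0.541 TPM (median 0.375), a log2 difference of -1.99 ± 0.25 (limma adjusted p = 0.00031). Its list of GDNF, neurotrophin, EGF and HGF ligands had 6 of 12 falls and 1 rise (3 and 2 falls without each 1M library). The neurotrophin NTF3 went from 25.2 and 13.02 TPM to 1.14 to 3.08 TPM (median 2.07), a log2 difference of -2.63 ± 0.40 (limma adjusted p = 0.00082), and MST1, a relative of hepatocyte growth factor, from 29.2 and 23.3 TPM to 1.06 to 4.57 TPM (median 2.23), a log2 difference of -3.08 ± 0.45 (limma adjusted p = 0.00064). PROS1, AREG and NRG1 were the other 3. Of the receptors GFRA2 fell (log2 difference -1.28 ± 0.30, limma adjusted p = 0.0070), at 1.08 and 3.13 TPM at 1M, whereas TYRO3, a receptor for PROS1 and GAS6, rose from 0.897 and 0.735 TPM to 6.09 to 77.5 TPM (median 51.8), a log2 difference of 4.18 ± 0.90 (limma adjusted p = 0.0049) and the neurotrophin receptor NTRK3 (log2 difference 2.01 ± 0.36, limma adjusted p = 0.0019). The GDNF co-receptor GFRA1 and its partner RET were not called (log2 differences 1.11 ± 0.61 and 0.82 ± 0.55). The receptor list turned from 2 higher and 1 lower to 2 and 4 with median-ratio scaling, and had 5 rises without adult replicate 1 or 3 and 7 without both. GDNF and GFRA2 had passed the filter through 1M and were not tested without either 1M library, and GFRA2 was not called with adult replicates 1 and 3 alone.

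Of 29 ephrin, semaphorin and SLIT ligands, guidance molecules of cells and vessels, 11 (37.9%, beside 32.8% over all genes) were higher on the TPM scale and 2 lower. That balance was 5 and 6 with median-ratio scaling, 2 and 8 with quantile normalization and 2 and 6 with adult replicates 1 and 3 alone. Without either 1M library 1 ligand was higher and none lower, and without adult replicate 4, 5 or 6 there were 7 rises. Without adult replicates 1 and 3, 18 were higher, and within bins of GC content and length 6 higher and 8 lower. SEMA3D, a secreted semaphorin, was called higher in each of the 8 fits that left out 1 library, at 4.09 and 3.90 TPM in the 1M libraries and 31.0 to 76.1 TPM (median 53.2) in the adult libraries (log2 difference 3.35 ± 0.37, limma adjusted p = 0.00012). The ligand EFNA1 fell from 54.1 and 88.5 TPM to 4.30 to 22.8 TPM (median 16.2), a log2 difference of -2.35 ± 0.61 (limma adjusted p = 0.0114). Of 18 receptors 2 rose and 3 fell, with 5 rises without adult replicate 3, 4 without adult replicate 1, and none without either 1M library or with median-ratio scaling. Without adult replicates 1 and 3, 7 rose, with these alone, 5 fell, and within bins of GC content and length 7 fell. EPHA7 fell from 10.9 and 11.7 TPM to 0 to 0.382 TPM (median 0.146), a log2 difference of -3.44 ± 0.24 (limma adjusted p = 8.5e-06), EPHB1 (log2 difference -1.61 ± 0.32, limma adjusted p = 0.0031) and EPHA3 (log2 difference -1.36 ± 0.39, limma adjusted p = 0.0170). Leaving out each 1M library gave an adjusted p of 0.0531 and 0.125 for EFNA1, 0.0316 and 0.0543 for EPHB1 and 0.120 and 0.110 for EPHA3. EFNA1 and EPHA3 were not called with adult replicates 1 and 3 alone. EPHA7 had passed the filter through 1M and was not tested without either 1M library.

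Chemokine and cytokine genes summed to 655 and 747 TPM in the 1M libraries and 31.8 to 365 TPM (median 229) in the adult libraries, with 4 of 14 lower and none higher (2 higher without adult replicate 1 or 3, 5 without both). CXCR4, the receptor that guides germ cells and leukocytes towards CXCL12, carried most of it, at 543 and 651 TPM in the 1M libraries and 7.18 to 116 TPM (median 47.5) in the adult libraries (log2 difference -3.88 ± 0.86, limma adjusted p = 0.0055, 0.0566 without 1M replicate 2). IL13RA1, a receptor chain for interleukins 4 and 13, fell (log2 difference -2.38 ± 0.58, limma adjusted p = 0.0088), and TNFRSF11B, the RANK ligand decoy, from 3.99 and 2.84 TPM to 0 to 0.282 TPM (median 0.0422), a log2 difference of -2.02 ± 0.21 (limma adjusted p = 9.2e-05). CXCL14 was the other. TNFRSF11B and CXCL14 had passed the filter through 1M, so they were bound to differ and were not tested without either 1M library. The adjusted p of IL13RA1 was 0.0895 and 0.0618 without 1M replicate 1 and 2 in turn, and 1 and 0 of the list fell in those fits.

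Hormone receptors changed in both directions. Both estrogen receptors fell, ESR1 from 27.5 and 24.8 TPM to 2.35 to 11.5 TPM (median 5.64), a log2 difference of -2.05 ± 0.49 (limma adjusted p = 0.0077) and ESR2 from 12.96 and 14.3 TPM to 1.499 to 5.42 TPM (median 3.64), a log2 difference of -1.73 ± 0.43 (limma adjusted p = 0.0099). GNRHR, the receptor for gonadotropin-releasing hormone, fell from 7.38 and 4.597 TPM to 0 to 1.83 TPM (median 0.307), a log2 difference of -2.27 ± 0.39 (limma adjusted p = 0.0016), with adult replicate 1 the highest adult. FSHR, through which follicle-stimulating hormone drives Sertoli cells, overlapped between ages, with 14.8 and 12.7 TPM at 1M and 8.12 to 25.7 TPM (median 15.1) in adults (log2 difference 0.13 ± 0.45, limma adjusted p = 0.812). Of 31 receptors 8 rose and 3 fell (4 and 5 with median-ratio scaling, 1 and 7 with quantile normalization). PPARD, a fatty acid sensor, rose (log2 difference 2.27 ± 0.45, limma adjusted p = 0.0033), the vasopressin receptor AVPR1A (log2 difference 2.31 ± 0.48, limma adjusted p = 0.0040) and the germ-cell nuclear factor NR6A1 (log2 difference 2.46 ± 0.71, limma adjusted p = 0.0185) did too. There were 15 rises without adult replicate 1, 13 without adult replicate 3, 19 without both, 3 with these alone and 5 without adult replicate 5. Without each 1M library 1 fall, that of GNRHR, and 1 rise were counted, so ESR1 and ESR2 were not called there. In those fits AVPR1A had an adjusted p of 0.0583 without 1M replicate 1, PPARD of 0.0537 without 1M replicate 2 and NR6A1 of 0.101 and 0.121 without each. GNRHR and NR6A1 were not called with adult replicates 1 and 3 alone.

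Retinoic acid genes, which time the entry of germ cells into meiosis, changed in both directions. CRABP1, which binds retinoic acid in the cell, went from 7.48 and 16.2 TPM to values listed at 0 in 4 of the 6 adult libraries and at most 0.155 TPM (log2 difference -3.56 ± 0.29, limma adjusted p = 1.9e-05), and RBP4, the retinol carrier of plasma, from 7.64 and 2.69 TPM to 0 to 0.582 TPM (median 0.0557), a log2 difference of -2.31 ± 0.34 (limma adjusted p = 0.00068). RDH10, RDH12 and ALDH1A2, enzymes of retinoid metabolism, also fell. The list had 6 falls and 3 rises of 13 (8 and 1 with median-ratio scaling, 7 and 1 with adult replicates 1 and 3 alone). Within bins of GC content and length 7 fell and 1 rose. LRAT, which stores retinol as esters, rose from 21.3 and 12.3 TPM to 68.1 to 91.2 TPM (median 85.7), a log2 difference of 2.27 ± 0.29 (limma adjusted p = 0.00027), as did ALDH1A3 (log2 difference 1.58 ± 0.33) and DHRS3, which turns retinal back to retinol (log2 difference 1.00 ± 0.31). Without each 1M library 1 fall was counted, and CRABP1 and RBP4 were not tested. STRA6, the retinol importer, was not called (log2 difference -1.10 ± 0.57).

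Of 17 Hippo genes 3 fell and 2 rose (5 and 7 rises without adult replicate 1 and 3), with a median of 0.98 and 6 of 17 below 0. Rises numbered 9 without adult replicates 1 and 3, and falls 5 with median-ratio scaling and 6 within bins of GC content and length. Among the falls were CCN1 and CCN2, known as targets of the effectors YAP and TAZ. CCN1 had 2882 and 2327 TPM in the 1M libraries and 34.8 to 328 TPM (median 179.5) in the adult libraries (log2 difference -4.30 ± 0.76, limma adjusted p = 0.0018) and CCN2 226 and 206 TPM in the 1M libraries and 1.88 to 67.4 TPM (median 42.1) in the adult libraries (log2 difference -2.88 ± 1.03, limma adjusted p = 0.0432). Both encode matricellular proteins that stretch and serum also induce. A list of immediate early and stress genes, chosen after values were seen, also summed higher at 1M (13035 and 12293 TPM) than in any adult (at most 6258 TPM), and its part in these falls was not tested. FOS, DUSP1, ATF3 and HSPA8 are among its members with higher values at 1M, whereas JUN, JUNB and ZFP36 had higher adult means and the median difference of the list was 0.01. CCN2 was not called with adult replicates 1 and 3 alone (-4.19, adjusted p = 0.0934), nor without 1M replicate 1 or 2 (0.181 and 0.167) or adult replicate 4, 5 or 6 (0.0527 to 0.0619, limma). TEAD4 fell (log2 difference -2.22 ± 0.41, limma adjusted p = 0.0022), TEAD3 rose (log2 difference 5.23 ± 0.84, limma adjusted p = 0.0011), and YAP1 was not called (log2 difference -1.42 ± 0.76).

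Vasoactive signalling showed 5 falls and 2 rises among 26 genes (3 and 3 falls without each 1M library). With median-ratio scaling 11 fell and 1 rose, and with adult replicates 1 and 3 alone, 8 fell and 1 rose, whereas without these 6 fell and 10 rose. Endothelin 1 (EDN1), a constrictor peptide, had 226 and 224 TPM in the 1M libraries and 3.18 to 7.31 TPM (median 5.17) in the adult libraries, a log2 difference of -5.20 ± 0.35 (limma adjusted p = 7.6e-06). Its receptor EDNRB fell from 308 and 305 TPM to 5.66 to 62.6 TPM (median 35.4), a log2 difference of -3.44 ± 0.74 (limma adjusted p = 0.0048), whereas EDNRA was not called (log2 difference -0.47 ± 0.89). LPAR6, a lysophosphatidic acid receptor, fell (log2 difference -3.38 ± 0.37, limma adjusted p = 0.00012). The angiotensin receptor AGTR1 fell from 15.4 and 17.1 TPM to 0 to 4.66 TPM (median 2.05), and EDN2 was the other. The beta-1 adrenergic receptor ADRB1 rose (log2 difference 2.33 ± 0.34, limma adjusted p = 0.00067), but not with values centred within bins of GC content and length (0.96). Rises numbered 4 without adult replicate 1, 9 without adult replicate 3 and 1 without any other library.

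Among somatic cell genes there were 34 falls (21.2%) and 26 rises (16.2%) among 160 tested, with a median of 0.10. Median-ratio scaling gave 18 higher and 58 lower, and bins of GC content and length 18 higher and 55 lower. There were 58 rises without adult replicates 1 and 3 and 11 without either 1M library. Rises numbered 41 and 45 without adult replicate 1 and 3. With adult replicates 1 and 3 alone there were 36 falls and 14 rises, and without 1M replicate 1 and 2 in turn there were 10 and 11 falls. Among the anchors, AMH, DHH, CYP17A1, INSL3, LHCGR, ACTA2, PDGFRA and PECAM1 were not analysed here, which leaves the Sertoli, Leydig, myoid and endothelial lists without some of their defining genes. INHBA and INHBB were below the filter.

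Sertoli genes summed to 1724 and 1623 TPM in the 1M libraries and 678 to 1042 TPM (median 775) in the adult libraries, and 6 of 17 fell and 2 rose (4 and 5 rises without adult replicate 1 and 3, 6 without both). Among the falls were VIM, HSD17B1, SOX9 and the transcription factors EMX2 and LHX9, both needed to form the gonad. EMX2 went from 12.9 and 12.8 TPM to 1.14 to 5.06 TPM (median 2.51), a log2 difference of -1.92 ± 0.44 (limma adjusted p = 0.0062) and LHX9 from 106 and 85.7 TPM to 8.99 to 72.6 TPM (median 25.3), a log2 difference of -1.86 ± 0.62 (limma adjusted p = 0.0330). SOX9, a transcription factor that directs Sertoli fate, had 51.7 and 52.5 TPM in the 1M libraries and 13.8 to 38.5 TPM (median 26.8) in the adult libraries, at the edge of the threshold (log2 difference -1.03 ± 0.38, limma adjusted p = 0.0497). WT1, another Sertoli factor, had 11.1 and 11.6 TPM at 1M and 14.6 to 92.5 TPM (median 63.5) in adults (log2 difference 1.83 ± 0.74, limma adjusted p = 0.0644), with adult replicates 1 and 3 near the 1M values, and was called higher without either of these. GATA4 had 20.2 and 21.1 TPM and 14.2 to 69.2 TPM (median 50.1), a log2 difference of 0.88 ± 0.59 (limma adjusted p = 0.220), and was called higher without adult replicate 3. KRT18, a keratin of immature Sertoli cells in mammals, rose from 35.5 and 47.04 TPM to 213 to 440.5 TPM (median 257), a log2 difference of 2.71 ± 0.31 (limma adjusted p = 0.00016). Adjusted p without 1M replicate 1 and 2 in turn was 0.0599 and 0.0610 for EMX2, 0.185 and 0.132 for LHX9 and 0.213 and 0.223 for SOX9, 1 fall was left in the list each time, LHX9 also lost its call without adult replicate 5 or 6, and SOX9 was not called without adult replicate 1, 3, 5, 6 or 7 either.

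Steroid synthesis genes gave rises and no falls on the TPM scale, with 41.2% higher beside 32.8% over all genes. Their median difference of 0.44 was below the 0.81 over all genes, and 6 members lay below 0. The list summed to 1076 and 1087 TPM in the 1M libraries and 811 to 2252 TPM (median 994) in the adult libraries. In the Leydig and steroid synthesis list 7 of 17 rose and none fell (6 and 2 with median-ratio scaling, 4 and 4 rises without each 1M library). Aromatase (CYP19A1), which makes estrogen, went from 0.0214 and 0 TPM to 7.61 to 25.3 TPM (median 13.6), a log2 difference of 3.82 ± 0.46 (limma adjusted p = 0.00021). It had passed the filter through the adult libraries alone and was bound to differ. POR, which passes electrons to the cytochromes P450, rose (log2 difference 3.56 ± 0.78, limma adjusted p = 0.0054), and the sterol carrier STARD6, a spermatid gene in the mouse, rose too (log2 difference 4.59 ± 0.57, limma adjusted p = 0.00024). POR had an adjusted p of 0.0517 without 1M replicate 2. STAR, which delivers cholesterol to mitochondria, had 461 and 482 TPM in the 1M libraries and 150.0 to 602 TPM (median 205) in the adult libraries, and CYP11A1, which makes pregnenolone there, had 124 and 116 TPM in the 1M libraries and 41.7 to 238 TPM (median 57.4) in the adult libraries. Both overlapped between ages (log2 differences -0.84 ± 0.61 and -0.71 ± 0.62), and adult replicates 1 and 7 held the highest values of STAR. CYP11A1 was highest in adult replicate 1, and without that library it was called lower. NR5A1, the steroidogenic factor, rose from 1.89 and 1.37 TPM to 4.01 to 47.7 TPM (median 30.0), a log2 difference of 3.20 ± 0.78 (limma adjusted p = 0.0088), but not with adult replicates 1 and 3 alone (1.94) or without 1M replicate 1 or 2 (0.0589 and 0.0782).

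Of 21 peritubular and stromal genes 5 fell and 2 rose (5 and 6 rises without adult replicate 1 and 3, 8 without both, and 8 falls with median-ratio scaling). Transgelin (TAGLN), a smooth muscle actin-binding protein, stood at 224 and 186 TPM in the 1M libraries and 4.78 to 84.8 TPM (median 45.5) in the adult libraries (log2 difference -2.65 ± 0.89, limma adjusted p = 0.0348), caldesmon (CALD1) at 159.9 and 146 TPM in the 1M libraries and 5.45 to 38.4 TPM (median 29.8) in the adult libraries (log2 difference -2.64 ± 0.64, limma adjusted p = 0.0085), and the stromal nuclear receptor NR2F2 at 84.3 and 91.3 TPM in the 1M libraries and 11.9 to 49.6 TPM (median 23.3) in the adult libraries (log2 difference -1.77 ± 0.51, limma adjusted p = 0.0186). Calponin (CNN1) and desmin (DES) rose, CNN1 from 0.601 and 0.740 TPM to 5.37 to 26.9 TPM (median 23.5), a log2 difference of 3.33 ± 0.67 (limma adjusted p = 0.0033), and the myosin MYH11 overlapped, at 108 and 129 TPM and 33.9 to 212 TPM (median 176). None of the 5 falls was called without 1M replicate 1 or 2, with adjusted p of 0.171 and 0.140 for TAGLN, 0.0755 and 0.0659 for CALD1 and 0.108 and 0.129 for NR2F2, and there were 3 falls without adult replicate 5 and 2 without adult replicate 6, where TAGLN had 0.0606. TAGLN and NR2F2 were not called with adult replicates 1 and 3 alone.

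Vessel and blood cell genes differed by list. LYVE1, of lymphatic vessels and some macrophages, fell from 31.2 and 35.8 TPM to 0.171 to 1.30 TPM (median 0.599), a log2 difference of -4.46 ± 0.35 (limma adjusted p = 1.7e-05), and ERG, an endothelial factor, from 15.9 and 24.7 TPM to 0 to 7.36 TPM (median 3.98). The endothelial list had 4 rises and 2 falls, against 2 and 7 with median-ratio scaling, 1 and 8 with adult replicates 1 and 3 alone, no rise and 1 fall without either 1M library, and 6 and 4 without adult replicates 1 and 3. PROX1 and FLT4, both of lymphatic endothelium, rose (PROX1 2.68 ± 0.81 and FLT4 2.69 ± 0.73). Their limma adjusted p was 0.0231 and 0.0144. Without 1M replicate 1 and 2 it was 0.132 and 0.114 for PROX1 and 0.101 and 0.0867 for FLT4, and PROX1 was not called with adult replicates 1 and 3 alone. Embryonic-type beta globin (HBE1) was high at 1M, at 1667 and 1405 TPM in the 1M libraries and 9.02 to 338 TPM (median 38.3) in the adult libraries (log2 difference -5.06 ± 1.27, limma adjusted p = 0.0102, 0.0770 and 0.0679 without each 1M library). RHAG, a red cell membrane protein, fell (log2 difference -1.96 ± 0.66, limma adjusted p = 0.0343), with 0.129 and 0.184 without each 1M library, and was not called without adult replicate 5 or 6 or with adult replicates 1 and 3 alone. Of 19 immune genes MARCO, a macrophage scavenger receptor, was the 1 that fell, from 4.89 and 5.81 TPM to 0 to 0.198 TPM (median 0.122), a log2 difference of -2.51 ± 0.20 (limma adjusted p = 2.0e-05), and LCP1, an actin bundler of leukocytes, rose from 22.4 and 20.7 TPM to 206 to 349 TPM (median 314), a log2 difference of 3.73 ± 0.27 (limma adjusted p = 1.1e-05). PTPRC, the pan-leukocyte antigen CD45, was not called (log2 difference 1.15 ± 0.83, limma adjusted p = 0.258). MARCO had passed the filter through 1M and was not tested without either 1M library. Immune rises were 3 and falls 1, which became 2 and 3 with median-ratio scaling, and rises numbered 6 without adult replicate 1, 8 without adult replicate 3 and 10 without both.

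Transcription factors of gonad and mesenchyme fell in 12 of 33 cases and rose in 3 (3 and 4 falls and no rise without each 1M library, 7 and 6 rises without adult replicate 1 and 3 and 11 without both). SNAI2, a repressor of epithelial genes, had 122 and 89.8 TPM in the 1M libraries and 4.63 to 30.2 TPM (median 8.66) in the adult libraries (log2 difference -3.23 ± 0.66, limma adjusted p = 0.0038), TWIST2, a mesenchymal factor, fell from 10.1 and 9.24 TPM to 0.242 to 2.02 TPM (median 0.585), a log2 difference of -2.66 ± 0.38 (limma adjusted p = 0.00057), and EBF1 from 62.9 and 47.8 TPM to 4.05 to 24.4 TPM (median 8.33), a log2 difference of -2.56 ± 0.60 (limma adjusted p = 0.0076). ZFPM2, the GATA4 cofactor, PRRX1, MEIS2 and NR2F1 also fell, beside those named with the Sertoli and stromal lists. DMRT1, a sex-determination factor of Sertoli and germ cells, rose from 43.8 and 43.9 TPM to 67.0 to 449 TPM (median 287), a log2 difference of 2.33 ± 0.63 (limma adjusted p = 0.0138). Of 13 HOX genes HOXD10 fell from 42.1 and 45.7 TPM to 1.25 to 6.47 TPM (median 2.40), a log2 difference of -3.61 ± 0.52 (limma adjusted p = 0.00058), as did HOXB7 (log2 difference -2.53 ± 0.39, limma adjusted p = 0.00085) and HOXA7 (log2 difference -1.81 ± 0.50, limma adjusted p = 0.0155). HOXB2 was the other, and HOXA3 rose (log2 difference 2.26 ± 0.51, limma adjusted p = 0.0063). Without either 1M library 2 HOX genes fell and none rose, with adult replicates 1 and 3 alone, 2 fell, and within bins of GC content and length 8 did. Adjusted p was 0.0519 for SNAI2 without 1M replicate 1, and 0.0829 and 0.0535 for EBF1, 0.0786 and 0.136 for HOXA7 and 0.0596 and 0.0662 for HOXA3 without 1M replicate 1 and 2 in turn. SNAI2 (-3.0) and HOXA7 (-1.5) were not called with adult replicates 1 and 3 alone, and none of the 3 rises of transcription factors was.

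Among genes of fetal growth, pleiotrophin (PTN), a heparin-binding growth factor, fell from 45.5 and 30.2 TPM to 0.991 to 2.93 TPM (median 1.83), a log2 difference of -3.79 ± 0.38 (limma adjusted p = 7.5e-05), CRABP1 and LIN28B were the other 2 of 3 falls in 11, and none rose (1 fall without either 1M library, 2 rises without adult replicate 1 or 3, 5 falls with median-ratio scaling). Of 21 junction genes 4 fell and 5 rose (8 and 2 with median-ratio scaling, 2 and 2 without either 1M library). With adult replicates 1 and 3 alone, 2 fell and 2 rose. Rises numbered 10 without both of these, 8 without adult replicate 3, 2 without adult replicate 5 or 6 and 3 without adult replicate 4 or 7. The mesenchymal cadherin CDH11 had 395 and 361 TPM in the 1M libraries and 1.75 to 18.97 TPM (median 12.2) in the adult libraries (log2 difference -5.08 ± 0.66, limma adjusted p = 0.00034), and CLDN1, DSP and CDH3 also fell. Occludin (OCLN), a tight junction protein of the blood-testis barrier, rose from 2.61 and 5.24 TPM to 30.7 to 80.2 TPM (median 59.9), a log2 difference of 3.58 ± 0.40 (limma adjusted p = 0.00014), and E-cadherin (CDH1), which undifferentiated spermatogonia carry, from 0.195 and 0.275 TPM to 2.55 to 17.03 TPM (median 8.69), a log2 difference of 2.96 ± 0.61 (limma adjusted p = 0.0037).

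The largest falls of all symbol-bearing genes reached beyond these lists. Epiphycan (EPYC), a cartilage proteoglycan, had 1149 and 702 TPM in the 1M libraries and 0 to 0.419 TPM (median 0.0511) in the adult libraries, a log2 difference of -9.66 ± 0.36 (limma adjusted p = 3.3e-07). SERPINB2, the plasminogen activator inhibitor 2, had 979 and 1334 TPM in the 1M libraries and 0.306 to 1.37 TPM (median 0.728) in the adult libraries (log2 difference -9.39 ± 0.39, limma adjusted p = 5.9e-07). Both were at or near 0 in the adult libraries. The carboxypeptidases CPE, which trims prohormones, and CPM, on the cell surface, went from 805 and 675 TPM to 0.579 to 11.7 TPM (median 5.77), a log2 difference of -7.11 ± 0.83 (limma adjusted p = 0.00017) and from 366 and 410.1 TPM to 0.536 to 6.68 TPM (median 2.48), a log2 difference of -6.70 ± 0.58 (limma adjusted p = 2.8e-05). Mohawk (MKX), a tendon transcription factor, fell from 64.9 and 56.6 TPM to 0 to 0.395 TPM (median 0.261), a log2 difference of -5.68 ± 0.29 (limma adjusted p = 1.8e-06), and FAP, a serine protease of activated fibroblasts, from 101 and 74.0 TPM to 0 to 2.096 TPM (median 0.999), a log2 difference of -5.49 ± 0.45 (limma adjusted p = 2.3e-05). The small heat shock protein CRYAB, the adhesion protein MPZL2, VSTM2A, which promotes fat cell commitment, PI15 and the interferon regulatory factor IRF1 were also among the 15, as were DKK3, LUM and POSTN. IRF1 was at 2473 and 2565 TPM at 1M and at 3.69 to 140.4 TPM (median 61.6) in adults (log2 difference -6.13 ± 1.19, limma adjusted p = 0.0029). The 15 were picked as the largest falls in these same libraries, so other fits of them are no independent support. Each of the 15 was called lower with adult replicates 1 and 3 alone, without them, with median-ratio scaling and with values centred within bins of GC content and length. With adult replicates 1 and 3 alone their differences ran from -9.81 for EPYC to -5.50 for CRYAB. EPYC, DKK3, VSTM2A and MKX had passed the filter through 1M and were not tested without either 1M library.

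Genes of general growth fell too. Of 40 ribosomal protein genes 26 fell and none rose, and they summed to 53534 and 51859.7 TPM in the 1M libraries and 13329 to 29204 TPM (median 16158) in the adult libraries, the highest adult value being adult replicate 1. Falls numbered 34 with median-ratio scaling and 16 with quantile normalization. With the 100 most abundant genes of each group removed, 15 of the members left fell and 1 rose. Members among those removed, RPS20 included, were no longer counted, so the 15 is not out of 40. RPS20 went from 6085 and 5915 TPM to 469.7 to 1245 TPM (median 695), a log2 difference of -3.04 ± 0.36 (limma adjusted p = 0.00018). With adult replicates 1 and 3 alone 6 fell, and without each 1M library 10 and 9. Of 39 nuclear genes of the respiratory chain and ATP synthase 20 fell and 1 rose (3 and 2 with adult replicates 1 and 3 alone, 4 and 4 falls without each 1M library, 32 without adult replicate 1). Of 28 mitotic cell cycle genes 9 fell and 3 rose (5 rises without adult replicate 1 or 3, 6 without both). The falls included the arrest factor CDKN1A, from 448 and 463 TPM to 18.5 to 37.4 TPM (median 34.2), a log2 difference of -3.93 ± 0.34 (limma adjusted p = 3.1e-05), the replication helicase subunit MCM6 (log2 difference -3.12 ± 0.34, limma adjusted p = 0.00012) and the mitotic kinase AURKB (log2 difference -3.09 ± 0.54, limma adjusted p = 0.0017), while the cyclin CCND3 rose (log2 difference 2.95 ± 0.44, limma adjusted p = 0.00075). Cholesterol synthesis genes numbered 5 rises and 1 fall of 16 (2 and 4 with median-ratio scaling, 1 and none without each 1M library, 2 and 1 without adult replicate 5 or 6, 8 rises without adult replicate 3, 9 without adult replicates 1 and 3), with SQLE, the squalene epoxidase, at 1.94 ± 0.34 (limma adjusted p = 0.0018). Among the most abundant genes, carbonic anhydrase CA3 and the glutathione transferase GSTM3 were not called (log2 differences 0.50 ± 0.76 and 0.18 ± 0.51). B2M, the light chain of MHC class I and among the 5 most abundant genes at 1M, fell from 8161 and 8433 TPM to 144 to 1066 TPM (median 236), a log2 difference of -4.78 ± 0.63 (limma adjusted p = 0.00037). B2M and IRF1 belong to a list of interferon response and antigen presentation genes, chosen after values were seen, that summed to 11829.6 and 12139 TPM at 1M and 393 to 1418 TPM in adults.

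The later libraries are set beside the 103 falls as description. Each of the 103 had been called lower against these same 1M libraries, so lower later values are no separate support. The share over all genes is not given here. At 2M, with 1 library, 96 of the 103 lay below both 1M libraries, and 77 were still above the highest adult. COL1A1 (148 TPM), GNRHR, HOXB7 and SOX9 (153 TPM) lay above both 1M libraries at 2M. At 3M all 4 libraries lay below both 1M libraries in 103 of 103 genes, and at 4M all 3 libraries did in 98. LUM stood at 219.9 TPM at 2M, 15.7 to 41.6 at 3M and 4.11 to 59.0 at 4M. PDGFA was at 76.3 TPM at 2M and 3.69 to 4.21 at 3M. EDN1 had reached 5.73 TPM at 2M, within the adult range. The 4M replicate 3 resembled adult replicate 3 (r = 0.915) more than adult replicates 4 to 7 (0.782 to 0.827).

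The X chromosome is silenced in meiotic male germ cells of mammals. X-linked genes took 2.43% and 2.34% of TPM at 1M and 2.43% to 3.92% in adults. The means were 2.39% ± 0.0621 (SD, n = 2) and 3.15% ± 0.605 (SD, n = 6). The difference of 0.765 points had p = 0.143 in an exact two-sided permutation test over 28 arrangements, which cannot go below 0.0714. Of 522 X-linked genes tested 33.3% rose and 13.03% fell, near the 32.8% and 13.9% over all genes.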

How the data were processed

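RNA-seq was made from polyA-selected RNA of dissociated opossum testes with the KAPA mRNA HyperPrep kit and sequenced on a NovaSeq, per the labels' protocols. The submitters' processing notes name HISAT2 2.2.1, SAMtools 1.12 and StringTie 2.1.4, and the opossum genome build of these tables is not given in the sources used here. The authors deposited, per the file headers, TPM, FPKM and coverage per gene for each library, and no read counts. Coverage as deposited, multiplied by gene length, gave the aligned sequence per library, an approximate depth. The deposited FPKM served as an alternative.

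The 37 mitochondrial genes were removed, the remaining TPM of each library were rescaled to their original total, and log2(TPM + 1) was fitted with limma 3.58.1 (trend, R 4.3.3) over the 18152 genes with at least 1 TPM in at least 2 of the 8 libraries. P-values were adjusted over all of these by the Benjamini-Hochberg method, and a gene was called at an adjusted p under 0.05 with a log2 difference of at least 1. Symbols are those in the tables, carried by 13039 of 34985 genes, and 9652 genes tested had a symbol of their own. The X-linked share was compared by an exact permutation test. GC content and length are those of the longest protein-coding mouse transcript (GENCODE) of the same symbol, found for 9123 (94.5%) of the 9652. They stand in for the opossum values. The script was tested on simulated data.

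Named by rule were the 10 largest rises and 15 largest falls without overlap between groups, in each list the 3 called members with the largest difference in the more frequent direction and 1 in the other, 50 anchor genes, and the 5 most abundant genes of each age. Of the anchors 14 were not analysed here for want of a symbol in the tables and 2 were below the filter. Further list members that passed the test are named after their values were seen. A few genes are counted in their lists and not reported singly here. The members and lists were chosen with earlier results of these data known. Alternatives were other pseudocounts, filters, scalings and units, all 16 polyA libraries in 1 fit, and leaving out each library. Chosen after the data were seen were leaving out adult replicates 1 and 3, using these alone, and centring values within bins of GC content and length. Single-cell tables and the libraries made without polyA selection were not used here. The software was python 3.11.15 with pandas 2.3.3 and scipy 1.17.1.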

Additional observations from a re-analysis of the deposited data

Results flagged for a closer look

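In each of the following results 1 adult library lay far from the other 5. Chance flags about 1 in 20 groups, and 31 results are listed. Adult replicate 1 held 16 of the single genes, adult replicate 3 8, adult replicate 7 3 and adult replicate 6 1.

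Adult replicate 1 had the highest mitochondrial share, 39.9%, the lowest sperm tail sum, 3448 TPM, and the highest sum of ribosomal protein genes, 29204 TPM. It was highest for the abundant genes CA3 (62743 TPM), GSTM3 (25061 TPM) and B2M (1066 TPM). Among somatic and signalling genes it was highest for CYP11A1 (238 TPM), TWSG1 (65.5 TPM), LPAR6 (42.4 TPM), SOST (20.8 TPM), GNRHR (1.83 TPM) and CRABP1 (0.155 TPM). It was lowest for the growth factor FGF8 (19.04 TPM) and the acrosome gene SPATA46 (68.4 TPM). Genes of general function highest there were RPLP1, a ribosomal protein (2828 TPM), UQCRB and NDUFB4 of the respiratory chain (983 and 204 TPM), the sterol enzyme MSMO1 (91.4 TPM) and LIN28B (4.66 TPM).

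Adult replicate 3 was highest for the germ-cell genes HMGB4 (4432 TPM), LDHC (2171 TPM) and CNTD1 (340.2 TPM), the keratin KRT18 (440.5 TPM), the mitotic kinase AURKB (56.1 TPM) and the receptor EPHA3 (4.57 TPM). It was lowest for NDUFA10 of the respiratory chain (77.4 TPM) and for FGF14 (8.56 TPM). Adult replicate 7 was highest for FN1 (101 TPM), PDGFA (5.81 TPM) and LGR5 (1.07 TPM). Adult replicate 6 was the 1 adult library with SOSTDC1 above 0 (0.0968 TPM).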

How the results depend on the processing

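The number of genes called higher was 5954, and it was 3959 with a pseudocount of 5 TPM, 3677 with median-ratio scaling, 3128 with quantile normalization and 2084 of 9123 with values centred within bins of GC content and length. The number called lower was 2523, and it was 4539 with median-ratio scaling and 4705 with quantile normalization. Within bins of GC content and length it was 2088 of 9123 (22.9%, against 13.9%), and the share of calls that were higher went from 70.2% to 49.95%. The 13.9% and 70.2% are over all 18152 genes, so the change of gene set enters both of these comparisons. Centring also brings the median difference near 0 (0.006) by design. Median-ratio scaling, which takes no account of GC content or length, gave a median of 0.02 and 44.8% of calls higher. These shares therefore do not show the part of GC content and length. Leaving out 1 library gave 2871 to 7517 higher and 885 to 2815 lower, the lowest of each without 1M replicate 2. The other alternatives kept both counts within 1.5 times, not allowing for how many genes were tested. Among named genes a call was made in at least one of the 2 fits being compared, and the direction reversed, in 6 cases: FN1 with adult replicates 1 and 3 alone (-2.37), NDUFA10 (-0.20) and WNT9B (-0.17) within bins of GC content and length, and NRG4 (-0.0832), STRA8 (-0.28) and WNT2 (-0.0693) with quantile normalization. The cause was not tested. Over named genes and alternatives, 4199 of 4612 values kept their side of the threshold, 375 lost a call and 32 gained one. Of those that kept their side, 35, in 14 uncalled genes (CA3, FN1, FSHR, GATA4, GSTM3, IGF1, INHA, KIT, KITLG, LAMA1, MYH11, NOTCH2, PTCH1 and PTPRC), changed sign. The difference in the X-linked share ran from 0.611 to 0.909 points when 1 library was left out, and was 0.765 points with FPKM and with tested genes alone and 0.779 without the most abundant X-linked genes. No paired analysis was possible because the groups compared share only replicate number 1. The 1M group had 2 libraries, and the dependence on GC content and length differed between them and adult replicates 4 to 7; its part was not tested. TPM keeps no read counts, so counting error is not known.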

Other observations

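Genes that respond to stimulation of cells were examined as a list chosen after the values were seen, and its place in the age difference was not tested. Of 26 immediate early and stress genes tested, 4 (15.4%, beside 13.9% over all genes) fell and 1 rose, with a median difference of 0.01. The counts depended on adult replicates 1 and 3: 14 were higher and 5 lower without them, and 1 higher and 15 lower with them alone. The falls were ATF3, a stress-induced transcription factor, with 1378 and 1426 TPM in the 1M libraries and 1.74 to 208 TPM (median 80.5) in the adult libraries (log2 difference -4.94 ± 1.40, limma adjusted p = 0.0170), the phosphatase DUSP1, the factor KLF6 and the heat shock cognate HSPA8. GADD45A, a growth arrest gene, was the 1 that rose (log2 difference 3.31 ± 0.39). FOS, the archetypal immediate early gene, had 3752 and 3189.7 TPM in the 1M libraries and 6.16 to 1285 TPM (median 586) in the adult libraries and was not called (log2 difference -3.69 ± 1.67, limma adjusted p = 0.0906), although it was called lower both without adult replicates 1 and 3 and with these alone. Both 1M libraries lay above each adult library for FOS. The sum of the list was 3993 TPM in the 2M library and 2837 to 3033 TPM at 3M.

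Interferon response and antigen presentation genes formed a second list chosen after the values were seen. Of 17 tested, 10 fell and 2 rose (10 and 5 without adult replicates 1 and 3, 10 and 1 with these alone). Besides IRF1 and B2M the falls included the immunoproteasome subunits PSMB8, PSMB9 and PSMB10, the signal transducer IRF9, the antiviral enzyme RSAD2, IFI35 and the peptide-loading protein TAPBP. PSMB9 had 169 and 175 TPM in the 1M libraries and 4.76 to 44.6 TPM (median 9.38) in the adult libraries (log2 difference -3.81 ± 0.66, limma adjusted p = 0.0016). PSMB8 and PSMB9 were not called with adult replicates 1 and 3 alone. The 2 that rose, CIITA and HLA-DRA, belong to the MHC class II pathway of antigen-presenting cells. CIITA, at 0 TPM in both 1M libraries, had passed the filter through the adult libraries alone and was bound to differ. HLA-DRA had 5.44 and 5.26 TPM in the 1M libraries and 6.33 to 73.3 TPM (median 31.7) in the adult libraries (log2 difference 2.15 ± 0.77, limma adjusted p = 0.0427) and was not called with adult replicates 1 and 3 alone. The sum of the list was 2251 TPM at 2M and 352 to 465 TPM at 3M. Of the 19 immune cell genes of the report, by comparison, 1 fell and 3 rose (10 rose without adult replicates 1 and 3), and the pan-leukocyte gene PTPRC was not called. Testes of both ages were dissociated with collagenase and trypsin before RNA was isolated, and the part of that step in these values was not tested. Whether the 1M animals or their tissue had met any further stimulus is not stated in the labels.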
